A study of Rattus norvegicus with 42 samples.

Results

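Of the 3981 regions bound by the glucocorticoid receptor (GR) in rat liver that the deposited GR table lists, 1912 lay more than 1000 b from the nearest transcription start site (TSS) and overlapped, by at least 1 b, both a GR peak called at the height of a corticosterone (CORT) pulse and a GR peak called during constant CORT infusion. These 1912 distal sites shared by the pulsatile and the constant pattern were chosen from peak calls, and peak calls are made from GR signal. GR levels of the PEAK_140 and CONS groups are therefore given below as descriptions, without a test. The other regions were 1020 distal regions with a PEAK_140 peak and no CONS peak, 499 distal regions with a CONS peak and no PEAK_140 peak, 474 regions within 1 kb of a TSS and 76 distal regions with neither. Of the 1912 sites, 1860 were still chosen when a peak had to cover most of the region (at least 0.5 of it), and 1570 lay more than 5000 b from the TSS.

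GR is a nuclear receptor that binds glucocorticoids in the cytoplasm, moves to the nucleus and binds DNA as a dimer at the glucocorticoid response element, an inverted repeat whose arms read ACA and TGT around a 3-base spacer. Most such sites lie away from promoters, in enhancers that liver factors have already opened. In liver the receptor is known for raising genes of gluconeogenesis, amino acid breakdown and its own negative feedback. Endogenous CORT is secreted in pulses, and GR leaves DNA as the hormone falls between pulses.

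All libraries came from liver of adrenalectomised male Sprague Dawley rats, which lacked adrenal CORT and received intravenous infusions for up to 180 min. After surgery they had been given dexamethasone, another GR ligand, and CORT in the drinking water, withdrawn before infusion. CORT was carried by 2-hydroxypropyl-β-cyclodextrin (CORT-HBC, 0.0035 g in 1 ml). Pulsatile infusion (PULS) ran for 20 min in every hour at 1 ml/hr, and constant infusion (CONS) ran at 0.333 ml/hr after a short start at the faster rate. PEAK_140 and NADIR_180 were pulsatile CORT at the peak and the nadir of the third pulse (140 and 180 min), and CONS_140 and CONS_180 were constant CORT at the same times. VEH received the carrier without CORT. In the chromatin immunoprecipitation (ChIP) assays both VEH libraries were pulsatile infusions, library 1 collected at 140 min and library 2 at 180 min, and they served for both patterns. GR ChIP and ChIP of RNA polymerase II phosphorylated at serine 2 of its C-terminal repeat (pSer2 Pol2, the elongating form) each had 2 libraries in each of these 5 groups, and each library pooled the livers of 6 rats. RNA was sequenced at 180 min in 4 groups of 3 libraries: PULS and CONS, each with CORT and with VEH. Nothing in the labels ties an RNA library to an animal, so p-values measure the spread between these libraries. Liver is a mixed tissue, and in bulk samples fewer cells of a type and less RNA per cell cannot be told apart.

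GR libraries held 2051977 to 6715803 tags, pSer2 Pol2 libraries 4938473 to 9326927 tags and RNA libraries 3956379 to 7777219 reads assigned to genes. Intervals cannot be drawn from the ChIP tables, which hold log2 values shrunk towards each region's mean where tags are few. Both VEH libraries were below 0 at 1032 of the 1912 sites (54.0%), beside 53.0% of all regions. A difference from VEH depends at those sites on where the shrinkage put the floor. The 2 NADIR_180 GR libraries stood apart from each other: their median absolute difference over the sites was 1.27 on the log2 scale, against 0.20 to 0.48 in the other groups. Hepatocyte genes were abundant in every RNA library (Alb, albumin, from 73500 to 121000 CPM, reads scaled to a common TMM library size). Of the other cell types, Krt19 of cholangiocytes and Elane and Mpo of neutrophils had no read in any library. Other markers of these types were read, such as Epcam of cholangiocytes (37 to 63 reads) and S100a9 of neutrophils (0 to 11). Kupffer cell and sinusoidal endothelial markers were read in every library, such as Clec4f (278 to 554 reads) and Stab2 (605 to 1180).

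The sequences below were picked because they show the letters of a glucocorticoid response element inside sites whose nearest genes are named in what follows. They are matches to the binding matrix that the study derived from its GR regions. Other matches to that matrix, such as those at sites of Pfkfb1, Insig1 and Agt, lacked the ACA or the TGT arm. The capitals mark the half-sites of the core ACANNNTGT, and each name gives the distance of the site from the TSS of the nearest gene (negative upstream) and the deposited rn6 region that holds the match, all on the + strand except that of Etnppl (- strand).
Per1, -3317 b, chr10:55683421-55684046: agaACAcgaTGT
Per1, -1106 b, chr10:55685632-55686257: ggaACAtccTGT
Fkbp5, -1338 b, chr20:8020046-8020671: agaACAagcTGT
Mt2A, -1263 b, chr19:11309691-11310316: aggACAggcTGT
Zbtb16, 77786 b, chr8:53068834-53069500: ggtACAgtgTGT
Zbtb16, 11504 b, chr8:53135132-53135766: gggACAaagTGT
Por, 5842 b, chr12:24040660-24041285: ggtACAtaaTGT
Dusp1, -4571 b, chr10:16965722-16966389: tgaACAcagTGT
Etnppl, 42951 b, chr2:235781053-235781681: aggACAgagTGT
Cps1, -16600 b, chr9:74107104-74107729: ggtACAcccTGT
Mat1a, -2395 b, chr16:18687510-18688193: aggACAgccTGT
Nr0b2, 3864 b, chr5:151779556-151780181: agaACActgTGT
Slc45a1, -34405 b, chr5:167730414-167731093: aggACActcTGT
AABR07004100.2, -19990 b, chr1:124775856-124776481: ggaACAgcaTGT
The 14 matches share the half-sites and differ in the spacer and in the 3 flanking bases, and a match is a description of letters, not a measured binding position.

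By the annotation deposited with the regions, 1046 of the 1912 sites were intergenic (54.7%), 792 lay in an intron (41.4%), 39 at a transcription end site (TTS) and 35 in an exon. A repeat was annotated at 327 of them (17.1%), most often a long terminal repeat (137) or a short interspersed element (74). Regions with a PEAK_140 peak and no CONS peak divided similarly, with 54.3% intergenic and 42.9% intronic. The sites lay on 21 chromosomes, with 177 on chromosome 1, 174 on chromosome 2 and 23 on chromosome X. Distances to the TSS ran from 1008 to 482252 b with a median of 19557.5 b, and 611 sites (32%) lay within 10 kb, 1475 (77.1%) within 50 kb and 1750 (91.5%) within 100 kb. More lay downstream of the TSS (1067) than upstream (845). The median distance was 19606.5 b for PEAK_140 regions without a CONS peak and 12540 b for CONS regions without a PEAK_140 peak. At the distance limit, sites of Bhlhe40 (-1008 b) and Cblb (1014 b) were the nearest inside and regions of AABR07016592.1 (-997 b) and Klf15 (930 b) the nearest outside among regions that met the same peak overlaps. Group means of the first pair at PEAK_140 came from 4.82 and 4.9 (Bhlhe40) and 4.23 and 3.68 (Cblb), and of the second from 4.88 and 4.62 (AABR07016592.1) and 6.03 and 5.95 (Klf15).

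The sites clustered along the genome. Another shared site lay within 10 kb of 407 of them (21.3%), whereas the same share was 8.24% among PEAK_140 regions without a CONS peak, 9.82% among CONS regions without a PEAK_140 peak and 10.1% among regions within 1 kb of a TSS. Those sets were smaller, and the difference was not tested. The 1912 sites had 1482 different nearest genes, of which 1200 had 1 site, 195 had 2, 54 had 3 and 33 had 4 or more. The genes with the most sites were Zbtb16, a zinc-finger transcription repressor, and the unnamed gene AABR07027072.1, with 9 each, followed by Alb with 8, Slc45a1, a sugar transporter, with 7, and Tsku, a secreted small proteoglycan, with 6. For 153 sites the nearest gene was a small RNA predicted from a family model, which the pSer2 Pol2 and RNA tables seldom measure.

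Among the 1912 sites, 1213 overlapped a CONS_140 peak (63.4%) and 1828 a CONS_180 peak (95.6%), with 1129 overlapping both. The peak lists of the groups that the choice did not use met few of them: 13 sites (0.68%) overlapped a VEH peak and 7 (0.366%) a NADIR_180 peak. Those lists were short, with 118 VEH and 73 NADIR_180 peaks. The VEH and NADIR_180 shares were 0.392% and 0.588% of PEAK_140 regions without a CONS peak. They were 2.41% and 0.401% of CONS regions without a PEAK_140 peak and 5.06% and 3.38% of regions within 1 kb of a TSS. Median GR level over the sites was -0.59 and -0.81 in the VEH libraries and 4.99 and 4.74 in the PEAK_140 libraries. It was 4.46 and 4.13 in CONS_140 and 4.19 and 4.13 in CONS_180. The NADIR_180 libraries lay between, at 1.95 and -0.34, so that the second was close to VEH and the first was not. On the log2 scale the median difference from VEH over the sites was 5.08 at PEAK_140, 4.49 at CONS_140, 4.40 at CONS_180 and 1.29 at NADIR_180, beside 4.17, 3.38, 3.46 and 0.84 over all 3981 regions. These 4 differences share the VEH libraries and say how far signal in the chosen regions stood above them. The size depends on the scale: after centring every library on its median region the 4 medians were 0.46, 0.376, 0.341 and 0.112, since most listed regions moved together.

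**Figure D1:**
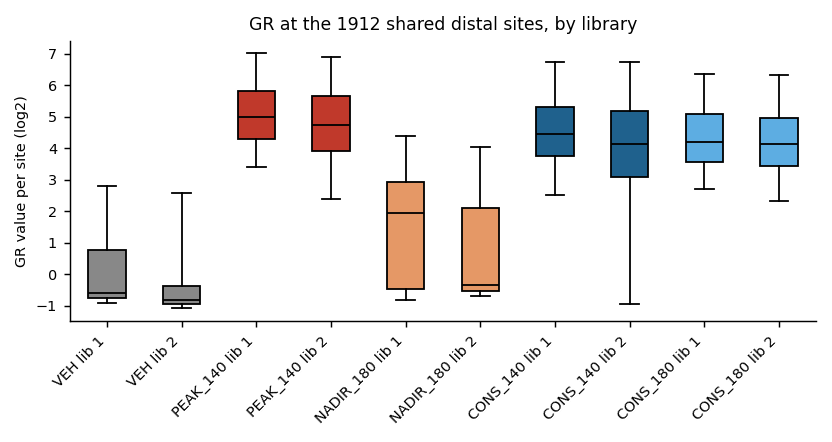
GR level (log2, deposited values) of the 1912 shared distal sites in each of the 10 GR libraries, with boxes at the quartiles, a line at the median and whiskers at the 5th and 95th percentiles. The PEAK_140 and CONS boxes sit at medians of 4.13 to 4.99, the VEH boxes at -0.59 and -0.81, and the NADIR_180 libraries differ from each other (1.95 and -0.34).

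At most of the sites GR at the pulse peak and under constant infusion overlapped. The PEAK_140 mean minus the mean of the CONS groups had a median of 0.64 on the log2 scale, with quartiles of 0.23 and 1.05. Its size depends on the scale too, since the centred differences from VEH given above lay closer together in these groups. At 1150 sites the PEAK_140 and CONS libraries overlapped, at 737 (38.5%) both PEAK_140 libraries were above all 4 CONS libraries, and at 25 (1.31%) both were below. Over all 3981 regions both PEAK_140 libraries were above all 4 CONS libraries at 1466, a share close to that of the sites. They were below at 126, a larger share than that of the sites. By set these counts were 623 and 1 of the 1020 PEAK_140 regions without a CONS peak, 6 and 67 of the 499 CONS regions without a PEAK_140 peak and 98 and 27 of the 474 regions within 1 kb of a TSS. The peak calls that define the sets used the same libraries. Within constant infusion, CONS_140 minus CONS_180 had a median of 0.16. Sites that overlapped peaks of both CONS times had higher median levels (5.42 at PEAK_140, 4.96 at CONS_140, 4.72 at CONS_180) than the 699 that overlapped only a CONS_180 peak (4.16, 3.14, 3.52) and the 84 that overlapped only a CONS_140 peak (3.86, 3.87, 2.92).

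The highest site lay in an intron -19990 b from the TSS of AABR07004100.2. Its GR level was 2.92 and 3.33 in VEH, 8.28 and 8.31 in PEAK_140, 6.58 and 6.37 in NADIR_180, 8.65 and 8.71 in CONS_140 and 7.92 and 7.97 in CONS_180. The order was the same in every library pair, with VEH lowest and NADIR_180 between VEH and the other 3 groups. A site in the first intron of Map1lc3b, whose product coats autophagosomes, rose from 0.92 and 0.68 in VEH to 7.88 and 7.61 in PEAK_140 and 8.56 and 8.47 in CONS_140, with 6.98 and 7.36 in CONS_180. Its NADIR_180 libraries were at 2.73 and 3.20.

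At the ends of the range, a site in an intron of Rnf125, a ubiquitin ligase, had the largest excess of PEAK_140 over CONS (4.42 on the log2 scale), and a site downstream of Cish, an inhibitor of cytokine signalling, followed (3.62). The Cish site had 6.33 and 5.76 in PEAK_140 against 3.88 and -0.97 in CONS_140 and 3.92 and 2.86 in CONS_180, so the CONS libraries also disagreed with each other. An intronic site of Mfsd8, a lysosomal transporter, was near the floor in CONS_140 (-0.38 and -1.14) and high in PEAK_140 (5.21 and 5.09) and CONS_180 (4.99 and 3.30). It also had the largest excess of CONS_180 over CONS_140, at 4.9. In the largest opposite cases the PEAK_140 libraries disagreed, such as Lurap1l (2.16 and -0.25), Trim29 (4.31 and 0.07) and Bcl6 (3.33 and -0.45). The size of the difference is therefore uncertain there. At Lurap1l and Trim29 both PEAK_140 libraries still lay below all 4 CONS libraries, while at Bcl6 they overlapped.

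The 9 sites of Zbtb16 were spread over introns 2 and 3 (8 sites, 11504 to 91439 b downstream of the TSS) and 1 intergenic position at -25023 b. The site at 91439 b, chr8:53055202-53055827, was at -0.21 and 0.64 in VEH and at 7.80 and 7.91 in PEAK_140, with 7.91 and 7.88 in CONS_140 and 7.39 and 7.46 in CONS_180. Its NADIR_180 libraries were at 3.65 and 0.06, so 1 of them had returned to the VEH range. The weakest site, at -25023 b, was at 4.51 and 3.87 in PEAK_140 and at 4.61 and 1.19 in CONS_140.

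Both sites upstream of Per1, a circadian clock repressor that glucocorticoids induce, already carried signal without CORT. The -3317 b site was at 2.38 and 3.17 in VEH, 6.88 and 6.94 in PEAK_140, 5.51 and 5.54 in NADIR_180, 8.21 and 7.84 in CONS_140 and 6.83 and 6.62 in CONS_180. The site upstream of Mt2A, a metal-binding metallothionein, behaved likewise: VEH was at 2.90 and 2.13, PEAK_140 at 8.40 and 7.94, NADIR_180 at 5.51 and 5.45, CONS_140 at 7.17 and 7.50 and CONS_180 at 7.06 and 6.70. At the -1338 b site of Fkbp5, a co-chaperone that lowers GR ligand affinity, the values were -0.46 and 1.21 in VEH, 6.18 and 5.94 in PEAK_140, 2.92 and -0.21 in NADIR_180, 5.68 and 5.89 in CONS_140 and 5.25 and 5.62 in CONS_180.

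The 2 sites upstream of Lpin1, a phosphatidate phosphatase of triglyceride synthesis, were among the strongest of the named genes. At -20308 b the level was -0.20 and -0.41 in VEH, 7.65 and 7.82 in PEAK_140, 4.01 and 3.19 in NADIR_180, 7.08 and 7.25 in CONS_140 and 7.23 and 7.11 in CONS_180. The 8 sites of Alb all lay upstream, from -2923 to -43541 b, and the highest was at -31008 b, with -0.31 and -0.52 in VEH and 6.81 and 7.31 in PEAK_140. Of the 3 sites downstream of Etnppl, an enzyme of phosphoethanolamine breakdown, that at 42951 b stood at 4.13 and 4.12 in VEH and at 6.16 and 6.09 in PEAK_140, whereas the other two were below 0 in both VEH libraries. The 4 sites of Tat, tyrosine aminotransferase and a classical glucocorticoid target, included 3 upstream, of which that at -2488 b was at 6.35 and 6.13 in PEAK_140 and at -0.46 and -0.29 in NADIR_180.

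**Figure D2:**
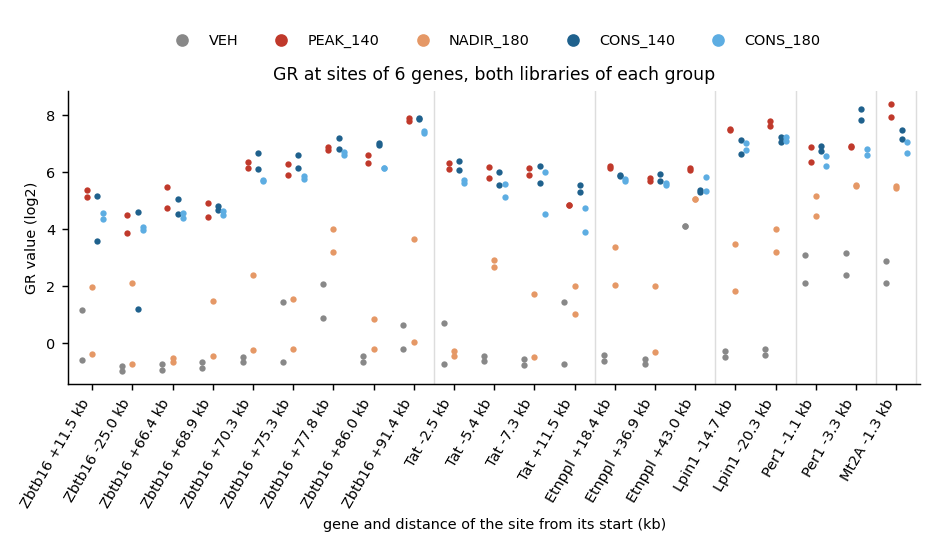
GR level (log2) of every shared site of Zbtb16 (9 sites), Tat (4), Etnppl (3), Lpin1 (2), Per1 (2) and Mt2A (1) in both libraries of the 5 groups, each site labelled by its distance from the TSS in kb. PEAK_140 and CONS points lie together at most sites, NADIR_180 points lie lower and are often apart, and VEH points are above 2 in both libraries at both Per1 sites, the Mt2A site and 1 Etnppl site.

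Whether GR remained above VEH at the nadir was the GR comparison that the choice of sites did not use. At 259 of the 1912 sites (13.5%) GR was higher in NADIR_180 than in VEH, and at 2 (0.105%) it was lower (limma over all 3981 regions, Benjamini-Hochberg adjusted p below 0.05 and more than 1.5-fold). Over all regions the corresponding shares were 7.44% and 0.352%. The test called 11 of the PEAK_140 regions without a CONS peak higher (1.08%), 2 of the CONS regions without a PEAK_140 peak (0.401%) and 24 of the regions within 1 kb of a TSS (5.06%). Both NADIR_180 libraries were above both VEH libraries at 1333 sites (69.7%), beside 63.5% of all regions and 67.1%, 52.3% and 51.5% of the PEAK_140 regions without a CONS peak, the CONS regions without a PEAK_140 peak and the regions within 1 kb of a TSS. These shares include sites at the floor, where NADIR_180 values can lie slightly above VEH without GR signal. At the Zbtb16 site at 66380 b, VEH was at -0.742 and -0.927 and NADIR_180 at -0.677 and -0.510 (limma adjusted p = 0.941). Such shares therefore cannot show that GR remained at the nadir. The count depended on the scale and on a library: no site was called after centring each library on its median region, and 641 were called without NADIR_180 library 2.

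Among the sites called higher, the largest rise was -70673 b from AABR07010589.1, from -0.08 and -0.29 in VEH to 4.95 and 5.00 in NADIR_180, a log2 difference of 5.16 (SE 0.277, limma adjusted p = 9.4e-05). PEAK_140 was at 8.01 and 8.05 at this site, so signal there had fallen from the peak and still stood above VEH. An intronic site of Scp2, a lipid carrier protein, was at -0.24 and -0.45 in VEH and at 4.82 and 4.45 in NADIR_180, a difference of 4.98 (SE 0.357, limma adjusted p = 0.000278). A site at -1313 b of Stap2, an adaptor protein, rose by 4.65 (limma adjusted p = 0.000697). Both VEH libraries were below 0 at each of these sites, so the sizes and SEs depend on where the shrinkage put the floor. The fit of the 4 libraries compared alone called no site higher or lower. The sites of feedback genes called higher at the nadir included both of Per1 (2.75 at -3317 b, limma adjusted p = 0.00186, and 2.21 at -1106 b, 0.0154) and that of Mt2A (2.97, 0.00178). Both Lpin1 sites were called as well (3.04 at -14666 b, limma adjusted p = 0.0104, and 3.91 at -20308 b, 0.000958), as were 1 of the 4 Tat sites (3.33 at -5434 b, 0.00378) and 1 of the 9 Zbtb16 sites (2.11 at 77786 b, 0.029).

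The 2 sites called lower had been above the floor in VEH. An intronic site of AABR07026015.1 went from 2.92 and 2.68 in VEH to -0.59 and -0.44 in NADIR_180 (log2 difference -3.32, limma adjusted p = 0.0444), and a site at the TTS near Lrrc39 from 1.42 and 2.02 to -0.55 and -0.39 (-2.19, 0.0405). The count of 2 became 0 without VEH library 1 or any 1 of the CONS libraries, 1 without either PEAK_140 library, and 7 and 4 without NADIR_180 library 1 or 2. The 6 strongest of the 7 sites that overlapped a NADIR_180 peak fell into 2 kinds. A site near RF00002 and a pair near Rn5-8s, both names of ribosomal RNA genes, stood at 5.51 to 6.47 in VEH and at 4.80 to 7.16 in NADIR_180. The sites of AABR07004100.2, described above, AABR07034573.1 and Zfp788 were lower in both VEH libraries than in either NADIR_180 library. At the Zfp788 site VEH was at 3.09 and 2.63, NADIR_180 at 5.20 and 5.30 and PEAK_140 at 6.59 and 6.43.

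The nearest genes were then followed in the pSer2 Pol2 data, which the choice of sites did not use. Of the 1482 nearest genes, 1065 had a tested pSer2 Pol2 region, and a gene was placed with a site by position alone. At PEAK_140 against VEH 42 of the 1065 genes rose (3.94%) and 18 fell (1.69%), beside 0.38% and 0.634% of all 16568 genes tested. At CONS_140 against VEH 75 rose (7.04%) and 10 fell (0.939%), beside 0.646% and 0.175%. At CONS_180 against VEH 21 rose (1.97%) and none fell, beside 0.181% and 0.0543%. There limma gave 43 genes lower at an unadjusted p below 0.05 (4.04%), beside 1.27% of all genes. These comparisons share the 2 VEH libraries. Among genes with no GR region nearest to them (14605 genes) 0.0548% rose at PEAK_140, 0.11% at CONS_140 and 0.0274% at CONS_180. Of all genes called higher, those nearest a shared site made up 66.7% at PEAK_140 (42 of 63), 70.1% at CONS_140 (75 of 107) and 70.0% at CONS_180 (21 of 30), and of those called lower 17.1% (18 of 105) at PEAK_140, 34.5% (10 of 29) at CONS_140 and none of 9 at CONS_180.

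The calls needed the spread of all 10 libraries: fits of the 4 libraries compared alone called no gene at PEAK_140 or CONS_140 and 3 higher at CONS_180. Without a single library the count of genes higher at PEAK_140 was 30 (without VEH library 1), 25 (either CONS_180 library), 13 (either CONS_140 library), 11 (either NADIR_180 library or PEAK_140 library 2), 9 (PEAK_140 library 1) or 5 (VEH library 2). At CONS_140 it was 283 without CONS_140 library 2, 10 without library 1, 9 without VEH library 2, 15 and 12 without NADIR_180 library 1 and 2, and between 39 and 60 otherwise. At CONS_180 it was 0 without either CONS_180 library, 4 without VEH library 2, 28 without VEH library 1, and 8 to 12 otherwise. The 18 genes lower at PEAK_140 became 1 without PEAK_140 library 1 or either VEH library, 3 without either NADIR_180 library, 6 without PEAK_140 library 2 and 9 without either CONS_180 library. The 10 lower at CONS_140 became 0 without either VEH library or NADIR_180 library 2, 1 without NADIR_180 library 1, 5 without either CONS_180 library, 6 without either PEAK_140 library and 22 without CONS_140 library 2. After quantile scaling 99 genes rose and 49 fell at CONS_140, and 70 rose and 12 fell at CONS_180.

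Zbtb16 had the largest rise. Its pSer2 Pol2 level over the deposited region chr8:53136953-53146953 was 3.96 and 2.84 (log2) in VEH, 9.77 and 9.73 in PEAK_140, 5.21 and 2.89 in NADIR_180, 10.46 and 10.09 in CONS_140 and 9.53 and 9.13 in CONS_180. The log2 change from VEH was 6.35 at PEAK_140 (SE 0.629, limma adjusted p = 0.00128), 6.87 at CONS_140 (0.000678) and 5.93 at CONS_180 (0.00259), and 0.65 at NADIR_180 (adjusted p = 1). Etnppl rose by 5.34 at PEAK_140, 5.81 at CONS_140 and 5.39 at CONS_180 (SE 0.493, limma adjusted p = 0.00121, 0.000427 and 0.00146), from 4.71 and 2.97 in VEH to 8.99 and 9.37 in PEAK_140. For Lpin1 the levels were 7.53 and 5.85 in VEH, 11.24 and 10.95 in PEAK_140, 6.57 and 6.21 in NADIR_180, 11.33 and 10.86 in CONS_140 and 11.32 and 10.93 in CONS_180. The 3 CORT groups other than NADIR_180 did not overlap VEH for any of these genes, and NADIR_180 did for Zbtb16 and Lpin1.

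Tsc22d3, which encodes the anti-inflammatory protein GILZ, had 2 sites downstream of its TSS and rose by 3.41 at PEAK_140 (SE 0.332, limma adjusted p = 0.00121). Its level went from 5.64 and 5.71 in VEH to 9.18 and 8.99 in PEAK_140 and was 6.04 and 6.12 in NADIR_180. Per1 was called higher at PEAK_140 (3.05), CONS_140 (3.96) and CONS_180 (3.42), from 4.79 and 3.03 in VEH to 7.17 and 6.76 in PEAK_140. Fkbp5 was called higher in CONS_140 (3.82, limma adjusted p = 0.00508) and CONS_180 (2.94, 0.0436). At PEAK_140 its change was 1.83 (adjusted p = 0.173), and the difference between the 2 patterns was not tested for it. Por, the reductase that feeds electrons to microsomal cytochromes P450, rose by 3.33 at PEAK_140, 3.23 at CONS_140 and 2.49 at CONS_180. The intronic GR site of Por lay inside its pSer2 Pol2 region, whereas those of Zbtb16 and Lpin1 lay outside theirs. Pfkfb1, the liver enzyme that sets fructose 2,6-bisphosphate, rose by 3.20, 3.48 and 3.70.

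Of the genes that fell at PEAK_140, Hal, histidine ammonia-lyase, stood at 8.67 and 8.42 in VEH, 6.13 and 6.26 in PEAK_140, 8.88 and 8.85 in NADIR_180, 8.81 and 8.21 in CONS_140 and 8.18 and 7.89 in CONS_180. The PEAK_140 libraries lay below those of all other groups, with a log2 change from VEH of -2.35 (SE 0.323, limma adjusted p = 0.00611). Slco1b2, an organic anion transporter of the sinusoidal membrane, had the same order (8.67 and 8.51 in VEH, 6.47 and 6.23 in PEAK_140, 8.37 and 8.75 in NADIR_180), a change of -2.24. Arrdc3, an arrestin-domain adaptor, fell by 2.24 on the log2 scale at PEAK_140 and stood at 10.70 and 10.49 in NADIR_180 against 10.83 and 10.88 in VEH. Scd, the desaturase that makes oleate, was at 6.10 and 5.82 in VEH, at 2.90 and 2.86 in PEAK_140, at 2.88 and 2.84 in NADIR_180, at 5.01 and 2.76 in CONS_140 and at 6.45 and 6.30 in CONS_180. Its change at PEAK_140 was -3.08 (SE 0.55, limma adjusted p = 0.023). The PEAK_140, NADIR_180 and lower CONS_140 values of Scd lay close together, as at a floor. The size of this change may therefore depend on where the shrinkage put that floor. The largest fall carried the symbol Ces1f (-4.11), a member of a carboxylesterase family of near-identical copies in which tags may be split, so that value is uncertain.

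At CONS_140 the falls included other genes. Nrep, a regulator of TGF-β signalling, fell by 4.76 on the log2 scale (SE 0.871, limma adjusted p = 0.0307), Socs2, an inhibitor of growth hormone signalling, by 3.99 (0.0217) and Igf1, the growth hormone-driven growth factor, by 2.30 (0.00772). Their changes at PEAK_140 were -2.26, -0.17 and -0.42, none called.

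**Figure D3:**
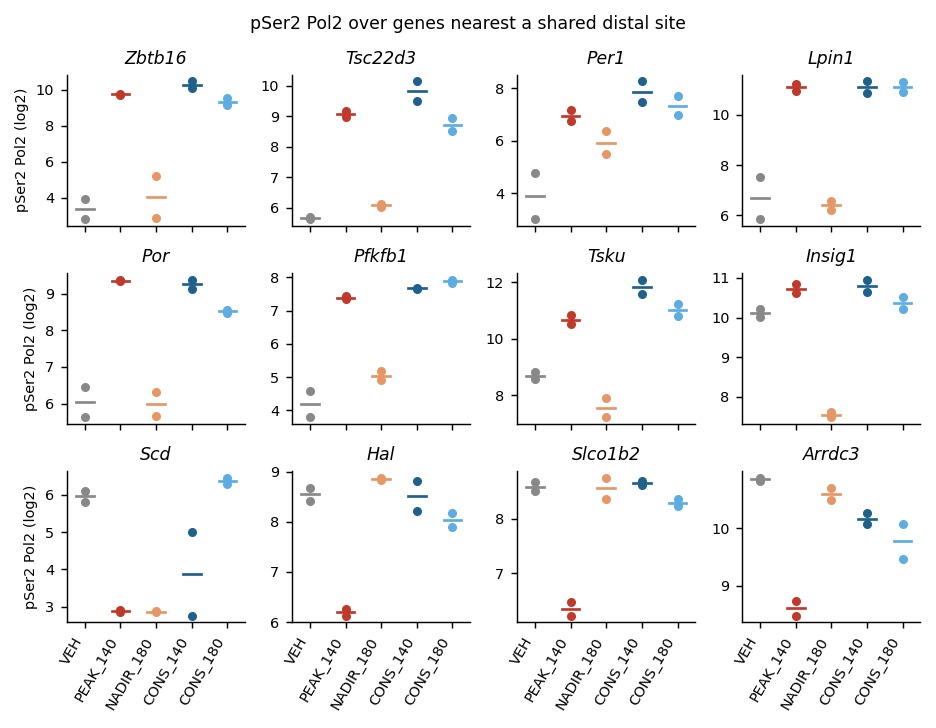
pSer2 Pol2 level (log2, deposited values) of 12 genes nearest a shared site in the 5 groups, with points for the 2 libraries and a bar at their mean. Zbtb16, Tsc22d3, Per1, Lpin1, Por, Pfkfb1 and Tsku are higher in PEAK_140 and both CONS groups than in VEH, Insig1 is low in NADIR_180, and Hal, Slco1b2 and Arrdc3 are lowest in PEAK_140.

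At the nadir few nearest genes differed from VEH past the test. No gene nearest a shared site rose at NADIR_180 against VEH and 1 fell (0.0939%), beside 0% and 0.00604% of all genes. At an unadjusted p below 0.05 limma gave 26 higher (2.44%) and 32 lower (3.0%), beside 0.767% and 0.64% of all genes. The gene that fell was Insig1, which retains the sterol sensor SCAP in the endoplasmic reticulum. It had 5 intergenic sites from -13577 to -40829 b upstream. Its pSer2 Pol2 level was 10.22 and 10.01 in VEH, 10.62 and 10.84 in PEAK_140, 7.61 and 7.49 in NADIR_180, 10.95 and 10.64 in CONS_140 and 10.51 and 10.22 in CONS_180. NADIR_180 stood apart from all other groups, with a log2 change of -2.57 from VEH (SE 0.271, limma adjusted p = 0.0221), a call that was lost in all but 3 of the fits that left out 1 library (either CONS_140 library or NADIR_180 library 2).

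Within the pulse, 30 nearest genes were higher at PEAK_140 than at NADIR_180 (2.82%) and 6 lower (0.563%), beside 0.26% and 0.247% of all genes. The 30 made up 69.8% of the 43 genes called higher. At 180 min, 21 were higher in CONS_180 than in NADIR_180 (1.97%) and none lower, beside 0.169% and 0.00604%. There limma gave 25 lower at an unadjusted p below 0.05 (2.35%), beside 1.07% of all genes. The 21 made up 75% of 28. These comparisons share the NADIR_180 libraries. Zbtb16 (5.70 and 5.28 on the log2 scale), Lpin1 (4.71 and 4.73), Ugt2a3, a glucuronosyltransferase (3.82 and 4.55), Por (3.37 and 2.53), Insig1 (3.18 and 2.82) and Tsku (3.12 and 3.47) were called in both. Tat was called in both, at 1.28 (limma adjusted p = 0.016) and 1.27 (0.0347), although its changes from VEH were not called. Its levels were 12.12 and 12.12 in VEH, 12.80 and 12.56 in PEAK_140, 11.37 and 11.44 in NADIR_180, 12.93 and 12.73 in CONS_140 and 12.66 and 12.68 in CONS_180. Hal (-2.67), Slco1b2 (-2.21) and Arrdc3 (-1.98) were lower at the peak than at the nadir. A single library decided these counts: without NADIR_180 library 1 or PEAK_140 library 1 the first count became 1, and it was 16 without PEAK_140 library 2, 17 without NADIR_180 library 2 or either CONS_180 library and 19 without CONS_140 library 2. The second became 0 without either CONS_180 library, 4 without NADIR_180 library 1 and 13 without NADIR_180 library 2. Per1 and Usp2, a deubiquitinase, were not called at PEAK_140 against NADIR_180 (1.02 and 1.16) and stood at 2.04 and 2.35 above VEH at NADIR_180 without passing the test.

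RNA at 180 min was tested for 1022 of the nearest genes among 14092 (edgeR quasi-likelihood over all 12 libraries, adjusted p below 0.05 and more than 1.5-fold). Pulsatile CORT raised 113 (11.1%) and lowered 34 (3.33%), beside 1.79% and 2.44% of all genes. The 34 became 20, 18 and 19 without PULS_CORT library 1, 2 or 3 and 19 without PULS_VEH library 2. Constant CORT raised 234 (22.9%) and lowered 64 (6.26%), beside 4.45% and 4.75%. Of all genes called higher, those nearest a shared site were 44.8% under pulsatile (113 of 252) and 37.3% under constant infusion (234 of 627). Of those called lower they were 9.88% (34 of 344) and 9.55% (64 of 670). Genes with no GR region rose in 0.874% and 2.65% of cases and fell in 2.21% and 4.34%. The difference between the 2 CORT responses called no nearest gene in either direction with edgeR, beside 0.0071% and 0.0213% of all genes. At an unadjusted p below 0.05 edgeR gave 165 higher (16.1%) and 79 lower (7.73%) under constant infusion, beside 6.25% and 6.16% of all genes. For the same difference DESeq2 called 43 and 25.

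Some cell-type marker sums differed between the groups. Summed over the 5 hepatocyte markers found of 6 listed, the level was 132000 to 143000 CPM in constant CORT and 93200 to 136000 CPM in constant VEH, and 129000 to 146000 and 128000 to 131000 CPM in the pulsatile groups. Without Cps1, which is itself nearest to shared sites and raised by CORT, the 4 sums ran from 117000 to 125000, 85900 to 128000, 115000 to 133000 and 121000 to 125000 CPM, overlapping in both patterns. Scaled to all assigned reads instead, the 5-marker sums of constant CORT (134000 to 141000) and constant VEH (89800 to 129000) did not overlap. Summed over 5 stellate cell markers the level was 39.9 to 47.7 CPM in constant CORT and 24.6 to 36.1 CPM in constant VEH, without overlap, and 27.6 to 46.4 and 28.8 to 46.3 CPM in the pulsatile groups. The cholangiocyte sum was 11.7 to 15.8 CPM in pulsatile CORT and 9.06 to 11.2 CPM in pulsatile VEH, without overlap and with Krt19 at 0 throughout, and 9.55 to 10.9 and 8.43 to 15.0 CPM in the constant groups. Sums of Kupffer cell (223 to 409 CPM), endothelial (241 to 339), erythroid (90.6 to 220.0) and neutrophil markers (0 to 2.87) overlapped between CORT and VEH in both patterns. The part of these markers in the RNA results was not tested. Of the RNA calls named below, those of Nrep, Nfkbia, Pim3, Fmo1 and Tat under pulsatile CORT and of Cyp7a1, Insig1, Mt2A, Nr0b2, Nr1i3, Nrep and Tob2 under constant CORT were lost in at least 1 fit that left out a library.

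Zbtb16 RNA stood at 32.1, 41.7 and 94.2 CPM in pulsatile VEH and at 405, 322 and 390.0 CPM in pulsatile CORT, and at 80.9, 35.0 and 45.8 CPM in constant VEH against 651, 589 and 540.0 CPM in constant CORT. CORT and VEH did not overlap in either pattern, with log2 changes of 2.74 (SE 0.329, edgeR adjusted p = 0.000152) and 3.44 (SE 0.336, 5.06e-06). Lpin1 was at 88.9, 76.1 and 112 CPM in pulsatile VEH, 819, 638 and 837 in pulsatile CORT, 88.9, 99.8 and 70.8 in constant VEH and 985, 2145 and 1837 in constant CORT. Its log2 changes were 3.05 and 4.26. Etnppl rose by 2.66 (edgeR adjusted p = 3.47e-07) and 3.62 (4.01e-09), Pfkfb1 by 2.27 and 3.21, Por by 1.68 and 2.71 and Usp2 by 3.64 and 3.30. For Por the 3 libraries of each group were 60.3, 48.5 and 69.9 CPM in pulsatile VEH, 178, 228 and 167 in pulsatile CORT, 71.3, 58.6 and 64.8 in constant VEH and 493, 410.0 and 377 in constant CORT.

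AABR07027072.1, the unnamed gene with 9 sites from -150426 to 44963 b, rose by 3.46 and 4.84 in RNA and by 3.20 in pSer2 Pol2 at PEAK_140. Alb, with 8 sites, was called in no pSer2 Pol2 or RNA comparison (RNA changes 0.02 and 0.29). Slc25a32, a mitochondrial folate carrier, rose by 1.53 and 3.15 in RNA and by 3.76 in pSer2 Pol2 at PEAK_140. Nyap2, which had no read in constant VEH, was at least 5.67-fold higher in constant CORT, counted against a floor of 3 reads in each VEH library.

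Arrdc3 RNA fell in both patterns. It was at 135, 256 and 175 CPM in pulsatile VEH and at 47.7, 81.9 and 103 CPM in pulsatile CORT, and at 190.0, 206 and 202 CPM in constant VEH against 39.6, 32.7 and 44.6 CPM in constant CORT, log2 changes of -1.29 (edgeR adjusted p = 0.00519) and -2.36 (1.11e-05). Nrep was at 55.8, 309 and 56.4 CPM in pulsatile VEH and 24.4, 34.4 and 40.3 CPM in pulsatile CORT, a change of -2.10 that became -0.77, with the call lost, without PULS_VEH library 2. Under constant CORT it fell by 2.14 on the log2 scale. Scd varied widely between libraries of a group, with 202, 352 and 1286 CPM in constant VEH and 19.5, 21.3 and 91.3 CPM in constant CORT. It fell by 3.80 on the log2 scale under constant CORT (edgeR adjusted p = 0.00394), while under pulsatile CORT the change was 0.82 (0.573). Hal RNA did not move past the test (0.08 in each pattern, adjusted p = 0.84 and 0.82), and Slco1b2 RNA fell by 0.69 on the log2 scale under constant CORT (edgeR adjusted p = 0.00133), with a change of -0.24 under pulsatile CORT (0.292).

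**Figure D4:**
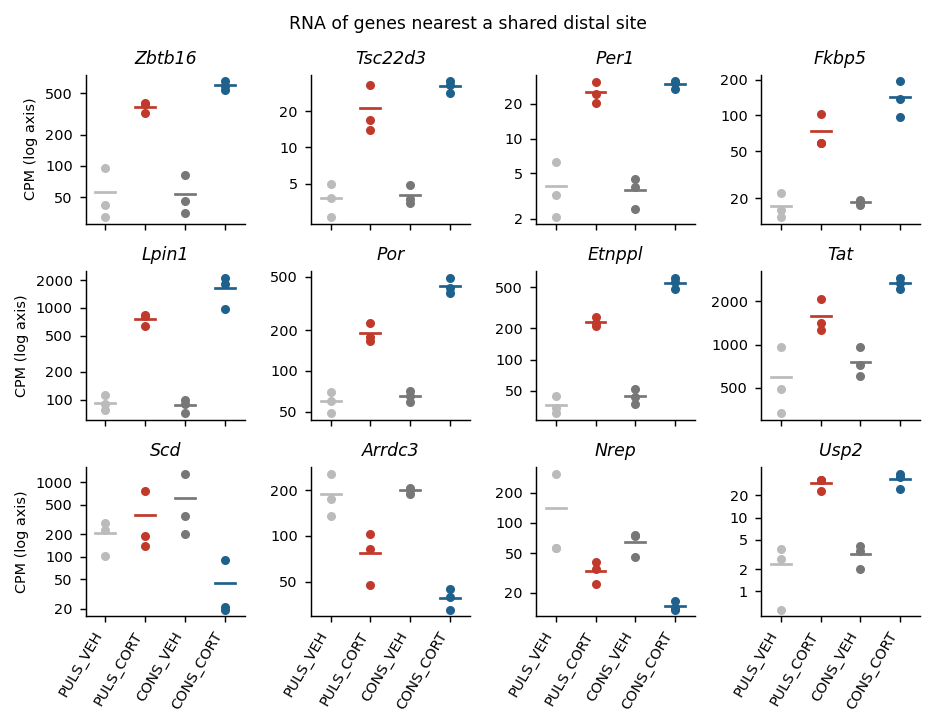
RNA level (CPM, log axis) of 12 genes nearest a shared site in the 4 groups at 180 min, with points for the 3 libraries and a bar at their arithmetic mean. CORT points lie above VEH points in both patterns for Zbtb16, Tsc22d3, Per1, Fkbp5, Lpin1, Por, Etnppl and Usp2, and below them for Arrdc3 and Nrep, while the Scd points of constant VEH alone run from 202 to 1286 CPM.

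The gene lists below were chosen with earlier results of these data known, so their counts and medians describe the lists and are not independent support. Over all genes tested, 1065 of 16568 in pSer2 Pol2 and 1022 of 14092 in RNA were nearest a shared site. Of 26 glucocorticoid feedback and anti-inflammatory targets, 16 were nearest to a shared site, with 41 sites in all. Among these 16, pSer2 Pol2 rose for 7 at PEAK_140 (median log2 change 1.78), 9 at CONS_140 (1.95) and 5 at CONS_180 (1.60), and none fell. Over all genes the medians were -0.05, 0.15 and 0.01. Of the 15 with tested RNA, 7 rose under pulsatile CORT (median 0.86) and 11 under constant CORT (1.37), beside medians of -0.01 over all genes. Over the whole list pSer2 Pol2 rose for 7 of 25 tested genes and fell for 1 at PEAK_140. Its RNA rose for 8 of 21 and fell for 1 under pulsatile CORT, and rose for 13 and fell for 2 under constant CORT. Per1 RNA went from 3.26, 2.08 and 6.22 CPM to 31, 24.5 and 20.6 CPM under pulsatile CORT, and from 2.44, 4.41 and 3.80 to 27.2, 30.7 and 31.5 CPM under constant CORT. Tsc22d3 RNA rose by 2.50 and 3.00 and Fkbp5 RNA by 2.09 and 2.95. Dusp1, a phosphatase of MAP kinases, was raised in RNA (1.61 and 1.23) and not called in pSer2 Pol2 (0.66 at PEAK_140). Klf9, a zinc-finger repressor, had 18.5, 42.1 and 29.7 CPM in pulsatile VEH and 47.4, 49.0 and 45.7 CPM in pulsatile CORT (change 0.66, edgeR adjusted p = 0.075), and rose by 2.02 under constant CORT. Nfkbia, the inhibitor of NF-κB, rose in both assays (pSer2 Pol2 2.05 at PEAK_140 and 2.72 at CONS_140, RNA 0.86 and 1.28). Cebpb, a liver transcription factor with 5 sites, rose in pSer2 Pol2 at CONS_140 (3.88, limma adjusted p = 0.0226) and was not tested in RNA.

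Of genes of amino acid catabolism and the urea cycle 15 of 38 were nearest to 27 sites. Among the 15, pSer2 Pol2 rose for 5 at PEAK_140 (median 0.89), 7 at CONS_140 (1.29) and 5 at CONS_180 (1.18), and Hal was the 1 that fell, at PEAK_140. Genes of this list without a shared site responded too: over the whole list 9 of 37 rose and 4 fell at PEAK_140. At CONS_140 11 of the 37 rose, and at CONS_180 8. RNA of the 15 rose for 10 under each pattern (medians 0.91 and 0.99), and Ddc, the aromatic amino acid decarboxylase, fell by 1.00 on the log2 scale under constant CORT. Over the whole list RNA rose for 18 of 36 under pulsatile CORT, and rose for 15 and fell for 2 under constant CORT. Ass1 and Arg1, enzymes of the urea cycle, rose by 1.84 and 1.48 in pSer2 Pol2 at PEAK_140. In RNA Ass1 rose by 1.18 under pulsatile and 1.02 under constant CORT, and Arg1 by 1.22 and 1.26. Cps1, which starts the urea cycle, rose in pSer2 Pol2 at CONS_140 (1.29) and in RNA by 0.97 and 1.18, with GR at -16600 b at 2.32 and -0.51 in VEH and 6.60 and 6.71 in PEAK_140. Mat1a, which makes S-adenosylmethionine in hepatocytes, rose by 1.47, 1.43 and 1.34 at PEAK_140, CONS_140 and CONS_180 and by 1.08 and 1.35 in RNA. For Tat RNA the libraries were 965, 331 and 486 CPM in pulsatile VEH, 2065, 1262 and 1409 in pulsatile CORT, 606, 718 and 954 in constant VEH and 2931, 2443 and 2680.0 in constant CORT, changes of 1.41 and 1.82. The saccharopine pathway enzyme Aass rose by 2.05 in pSer2 Pol2 at PEAK_140 and by 1.08 and 1.12 in RNA.

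Of gluconeogenesis, glycolysis and glycogen genes 10 of 23 were nearest to 12 sites. Pfkfb1 was the 1 called higher in pSer2 Pol2 at PEAK_140 and CONS_180, and Ppp1r3c, a glycogen-targeting phosphatase subunit, joined it at CONS_140 (1.45). RNA rose for 2 under pulsatile CORT, Pfkfb1 and Pck1, the gluconeogenic carboxykinase (1.00), and for 4 under constant CORT, these with Ppp1r3c (1.66) and Foxo3, a forkhead factor (1.19). The RNA medians of the 10 were 0.38 and 0.25. Over the whole list RNA rose for 5 of 21 tested genes under pulsatile CORT, and rose for 6 and fell for 2 under constant CORT. Of lipid metabolism genes 12 of 39 were nearest to 20 sites, and those of the 12 that passed the test went in both directions. The whole list went mostly down: in pSer2 Pol2 at PEAK_140 1 of 36 rose and 10 fell, and in RNA under constant CORT 4 of 34 rose and 15 fell. Of the 12, in RNA under constant CORT 4 rose, Lpin1, Insig1 (1.35), Ppara, a fatty acid-sensing receptor (1.5), and Cpt1a, the gate of mitochondrial fatty acid oxidation (1.12), and 3 fell, Scd, Elovl5, a fatty acid elongase (-0.72), and Cyp7a1, the rate-limiting enzyme of bile acid synthesis (-0.89, edgeR adjusted p = 0.0417). The median was -0.03. Cyp7a1 pSer2 Pol2 was higher at CONS_140 (2.25, limma adjusted p = 0.0211), the opposite direction to its RNA at 180 min.

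Of circadian clock genes 6 of 19 were nearest to 8 sites, and Per1 was the 1 of these 6 called in any comparison against VEH. In the whole list RNA rose for 2 of 17 tested genes under each pattern and fell for 3 under constant CORT. Of genes of growth and insulin signalling and its brakes 15 of 26 were nearest to 23 sites. At CONS_140 pSer2 Pol2 rose for 3 of the 14 tested, Igfbp1, a binding protein that sequesters insulin-like growth factors (1.60), Pim3, a serine kinase (2.44), and Tob2, an antiproliferative factor (2.25), and Socs2 and Igf1 fell. None of the 14 was called at PEAK_140 or CONS_180 with limma. RNA rose for Pim3 under pulsatile CORT (1.51) and for Igfbp1, Pim3, Tob2 and Egfr under constant CORT. In the whole list 1 of 24 rose and 2 fell in RNA under pulsatile CORT, and 5 rose and 3 fell under constant CORT. Igfbp1 RNA was at 10.7, 28.3 and 13.1 CPM in pulsatile VEH and 53.9, 28.4 and 24.1 CPM in pulsatile CORT (change 1.05, edgeR adjusted p = 0.143), and at 19.3, 14.3 and 39.3 CPM in constant VEH and 251, 172 and 154 CPM in constant CORT (2.98, 5.06e-05). Of hepatocyte transcription factors and nuclear receptors 12 of 22 were nearest to 23 sites. The xenobiotic receptors Nr1i2 (1.89) and Nr1i3 (2.10) and Nr0b2, the bile acid-induced repressor (2.66), rose in pSer2 Pol2 at CONS_140, and all 3 rose in RNA under constant CORT (1.62, 1.03 and 1.39), Nr1i2 also under pulsatile CORT (0.97). No member of this list was called at PEAK_140, where Nr1i2 had the highest of the 3 changes (1.45, limma adjusted p = 0.0868). Over the whole list RNA rose for 1 of 21 and fell for 2 under pulsatile CORT, and rose for 3 and fell for 1 under constant CORT. Of plasma and acute phase protein genes 15 of 28 were nearest to 31 sites. Among the 15, Agt, angiotensinogen, was the 1 called higher at PEAK_140 (2.67) and CONS_140 (2.09) and in RNA under pulsatile CORT (0.73). Over the whole list pSer2 Pol2 rose for 3 of 24 tested genes and fell for 1 at PEAK_140. Its RNA fell for 3 of 23 under constant CORT, and none rose. Of drug and hormone metabolising enzymes 3 of 26 were nearest to a site each: Por, described above, Akr1d1, a steroid reductase, which fell in pSer2 Pol2 at PEAK_140 (-2.58), and Fmo1, a monooxygenase, which rose in RNA (0.64 and 1.09). In the whole list pSer2 Pol2 rose for 1 of 20 tested genes and fell for 2 at PEAK_140. Its RNA rose for 5 of 20 under pulsatile CORT, and rose for 4 and fell for 2 under constant CORT.

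The shares of genes called were higher in classes with more shared sites, a difference that was not tested. With pulsatile CORT 8.78% of genes with 1 site, 19.3% with 2 or 3 and 23.8% with 4 or more rose in RNA, and with constant CORT 19.4% (157 of 809), 35.4% (68 of 192) and 42.9% (9 of 21). The same order held in pSer2 Pol2: at PEAK_140 2.17% (18 of 831), 9.62% (20 of 208) and 15.4% (4 of 26), at CONS_140 4.33%, 16.3% and 19.2%, and at CONS_180 0.722%, 6.25% and 7.69%. The last class held 21 genes in RNA and 26 in pSer2 Pol2. GR was also higher where sites were many, with median levels of 5.33, 4.65 and 4.45 at PEAK_140, CONS_140 and CONS_180 over the 160 sites of genes with 4 or more, against 4.77, 4.19 and 4.06 over sites that were the only one of their gene. The shares were also higher where the nearest shared site was closer, again untested. In RNA under constant CORT 26.3% rose with the site within 10 kb, 23% with it at 10 to 50 kb and 12.3% beyond 50 kb. Under pulsatile CORT the shares were 15.9%, 9.48% and 1.37%, while the share that fell went from 1.15% to 3.61% and 8.90%. In pSer2 Pol2 at PEAK_140 they were 5.73%, 3.08% and 0.719%.

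**Figure D5:**
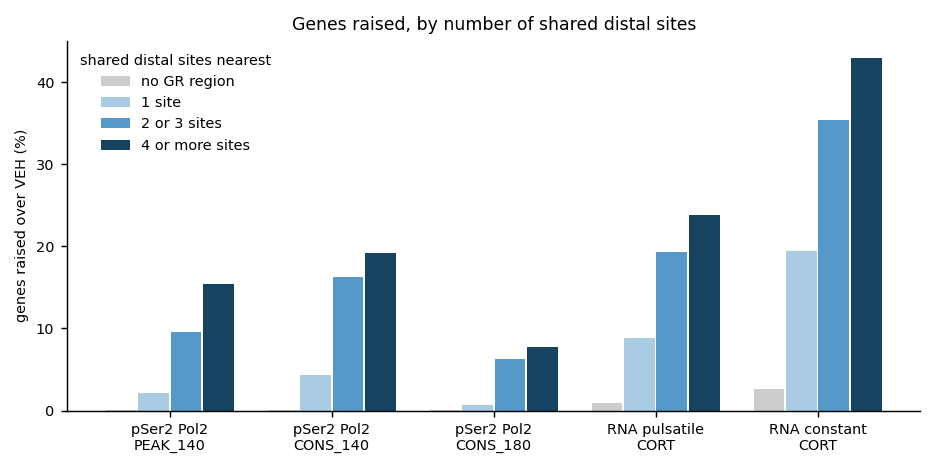
Share (percent, axis from 0) of tested genes called higher than VEH by the number of shared distal sites nearest to them (no GR region, 1, 2 or 3, 4 or more), for pSer2 Pol2 at PEAK_140, CONS_140 and CONS_180 and RNA under pulsatile and constant CORT. Each comparison runs from under 3% in genes without a GR region (2.65% at most) to its highest bar in genes with 4 or more sites (42.9% for constant RNA, 9 of 21 genes).

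Genes near the other GR regions responded too. Of genes nearest a PEAK_140 region without a CONS peak, pSer2 Pol2 rose for 19 (3.03%) and fell for 15 of 627 at PEAK_140, and RNA rose for 35 (5.94%) and fell for 36 (6.11%) of 589 under pulsatile CORT. Of genes nearest a CONS region without a PEAK_140 peak, RNA rose for 20 (6.21%) and fell for 16 (4.97%) of 322. Near regions within 1 kb of a TSS 50 of 388 rose (12.9%) and 5 fell. In pSer2 Pol2 the shares that rose near CONS regions without a PEAK_140 peak and near regions within 1 kb of a TSS were above that of the shared distal sites at PEAK_140 (5.29% and 6.46%, beside 3.94%) and at CONS_180 (3.24% and 3.35%, beside 1.97%). At CONS_140 they were 6.76% and 8.61%, beside 7.04%. None of these differences was tested. In RNA under constant CORT the shares that rose were 14.8%, 12.4% and 19.8%, beside 22.9% for the shared distal sites. A gene can belong to more than one of these sets, and the differences between them were not tested. When a gene was counted only if all its GR regions were shared distal sites, RNA rose for 9.14% under pulsatile and 20.2% under constant CORT of 678 genes, and pSer2 Pol2 for 2.09% at PEAK_140 and 4.88% at CONS_140 of 717.

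The 2 assays met in many of the same nearest genes. The agreement was counted among genes nearest a shared site only. It was not counted over all genes, so it cannot be read as particular to these. Of the genes tested in both (924), all 21 with higher pSer2 Pol2 at CONS_180 had higher RNA under constant CORT at the same time, 9.42% of the 223 with higher RNA. Of the 42 with higher pSer2 Pol2 at PEAK_140, 30 had higher RNA under pulsatile CORT at 180 min (71.4%), which was 27.3% of the 110 with higher RNA. Under constant CORT 37 of the 42 had higher RNA (88.1%). Of the 17 with lower pSer2 Pol2 at PEAK_140, 3 had lower RNA under pulsatile CORT (17.6%) and 10 under constant CORT (58.8%). Lower RNA was called for 32 of the 924 genes under pulsatile and 62 under constant CORT. Sorted by RNA response, the 101 genes raised in both patterns had 167 sites with median GR levels of 5.45 at PEAK_140, 5.03 at CONS_140 and 4.78 at CONS_180. The 133 raised under constant CORT only had 191 sites (5.23, 4.64 and 4.46), and the 776 raised in neither had 967 sites (4.66, 4.09 and 3.93). GR at NADIR_180 was called above VEH at 20.4% of the sites of genes raised in both patterns, 21.5% of those of genes raised under constant CORT only, 12.5% of those of the 12 genes raised under pulsatile CORT only and 10.0% of those of genes raised in neither. A call in 1 pattern and not in the other does not show that the responses differed, and with edgeR the test of the difference called none of these genes, whereas DESeq2 called 43 and 25 of the nearest genes.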

How the data were processed

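GR and pSer2 Pol2 tables hold log2 values that the authors made with HOMER (version 4.9.1) from tags aligned to rn6, with input subtracted and a DESeq2 regularised log. The study's methods say GR tags were scaled to tags in bound regions, while the table's header names total tags. GR peaks were deposited as 1 list per group, made from concordant peaks of 2 libraries. The RNA table holds counts of exonic reads that the authors obtained with featureCounts (1.6.2) on Rnor_6.0, from stranded total RNA. Whether counting used strand was not given in the sources used here, so antisense partners cannot be told apart from the genes named.

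The ChIP values were fitted with limma (3.58.1, trend) over all 10 libraries of an assay, and the RNA counts with edgeR (4.0.16, TMM, quasi-likelihood) over 12 libraries after dropping genes with 10 or fewer reads in all, in R 4.3.3. A call needed p under 0.05 after Benjamini-Hochberg adjustment over all features of a table and a change above 1.5-fold (0.585 on the log2 scale). Of 60999 pSer2 Pol2 regions, 38315 varied and were tested, and a gene counted once, by its called region with the greatest change. The scripts were tested on simulated data. Sites were linked to the nearest gene of the deposited annotation, and 22747 of 22929 RNA rows had a symbol there.

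The members and the gene lists were chosen with earlier results of these data known. Named sites were those with the highest mean, the largest changes in each direction or a NADIR_180 peak, and named genes those with most sites, the 8 largest rises and falls called in each comparison, and members of the gene lists. The matched sequences came from a study table that was held here in part (846 of the 1912 sites), so no share of sites with a match is given. Sequencing depth sets the precision of low values, and floors of 3 reads cover counting error only. The alternatives were another scaling, filter, tool, link or set of libraries.

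The replicate numbers of the libraries were not treated as pairs: the labels do not say that a number marks a shared animal or batch, and deviations of same-numbered libraries correlated at -0.0265 to 0.0718 in GR, 0.155 to 0.553 in pSer2 Pol2 and -0.0713 to 0.118 in RNA. In the titles the pulsatile CORT GR libraries carry lower library numbers than all VEH and CONS GR libraries. In pSer2 Pol2 the same holds for both NADIR_180 libraries and PEAK_140 library 1. The labels do not say what these numbers mark. Anything they mark cannot be told apart from the infusion in comparisons across that split.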

Additional observations from a re-analysis of the deposited data

How the results depend on the processing

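Median GR differences from VEH over the sites were 5.08 (PEAK_140), 1.29 (NADIR_180), 4.49 (CONS_140) and 4.40 (CONS_180). They became 0.46, 0.112, 0.376 and 0.341 after centring each library and 0.97, 0.312, 0.798 and 0.985 after quantile scaling, and ran from 4.95 to 5.31, 0.32 to 1.91, 4.31 to 4.74 and 4.32 to 4.62 when 1 library was left out. Centring took the median shift of all regions at NADIR_180 from 0.841 to -0.338 and at CONS_140 in pSer2 Pol2 from 0.15 to 0.006. Sites higher and lower at NADIR_180 (259 and 2) were 0 and 0 after centring and in the fit of 4 libraries, 58 higher after quantile scaling, 0 lower without the trend, 4 lower among regions above the median mean level, and 191 to 641 and 0 to 7 with 1 library left out.

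For pSer2 Pol2 the fits of the 4 libraries compared alone called 0 and 0 at PEAK_140 and CONS_140 against VEH and at PEAK_140 against NADIR_180, 3 higher at CONS_180 against VEH, 0 higher at CONS_180 against NADIR_180 and 0 lower at NADIR_180 against VEH. That construction has few samples. Other settings called more. At PEAK_140 (42 and 18) centring gave 89 and 34, quantile scaling 110 and 29 and the regions above the median level 68 and 30. At CONS_140 (75 and 10) the regions above the median gave 113 and 22, centring 27 lower and quantile scaling 49 lower. At CONS_180 (21 and 0) the counts were 63 and 5, 70 and 12 and 52 and 6 in that order (centring, quantile, above the median), and 2 fell with the nearest protein-coding gene, a link added after the data were seen. At PEAK_140 against NADIR_180 (30 and 6) they were 68 and 15, 72 and 19 and 51 and 14, and at CONS_180 against NADIR_180 (21 and 0) 45 and 1, 44 and 4 and 44 and 1. At NADIR_180 (0 and 1) the regions above the median gave 1 and 6 and centring 4 lower. With 1 library left out the counts higher and lower ran from 5 to 30 and 1 to 15 (PEAK_140), 0 to 1 and 0 to 2 (NADIR_180), 9 to 283 and 0 to 22 (CONS_140), 0 to 28 and 0 to 1 (CONS_180), 1 to 26 and 0 to 8 (PEAK_140 against NADIR_180) and 0 to 17 and 0 (CONS_180 against NADIR_180). The cause was not tested.

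RNA counts held within 1.5 times under most settings. Of the 34 genes lower under pulsatile CORT, 21 counted with sites within 50 kb only. It was 20, 18 and 19 without PULS_CORT library 1, 2 and 3 and 19 without PULS_VEH library 2. With 1 library left out pulsatile counts ran from 80 to 122 and 18 to 37, constant counts from 207 to 247 and 49 to 67, and the difference (0 and 0) from 0 to 47 and 0 to 21, the highest without CONS_VEH library 1. For the difference DESeq2 called 43 and 25, no filter 45 and 18 and the nearest protein-coding gene 1 lower. A replicate block on the numbers gave 33 and 5 at PEAK_140 against NADIR_180, 17 and 0 at CONS_180 against NADIR_180, 119 and 39 under pulsatile CORT, 240 and 66 under constant CORT and 0 and 2 for the difference. No paired analysis was possible for comparisons with the ChIP VEH libraries because they carry no replicate number. Of 3943 repeats of the named genes' and sites' calls, 2936 kept their call, 1007 lost it and 0 reversed. The losses were unevenly spread over the assays. Fits of the 4 ChIP libraries compared alone kept 1 of the named GR and pSer2 Pol2 calls and lost 136. In RNA each fit without 1 library lost 3 to 12 of the named calls. Each ChIP fit without 1 library lost more of its named calls than that. The share of sites with a motif match was not run, since the table was held in part.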
